A study of Homo sapiens with 44 samples.

Results

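The 144 regions of open chromatin described here are all the peaks that the deposited table names for STAT2, STAT3, STAT4, STAT5A, STAT5B or STAT6, out of 407383 peaks in all. They were chosen by the gene name in each peak's label and not by any measured value. STAT3 has 42 of them, STAT5A 43, STAT5B 24, STAT4 22, STAT6 9 and STAT2 4. By the table's own classes, 13 are promoter, 16 exonic, 86 intronic and 29 distal peaks.

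Chromatin accessibility was profiled by ATAC-seq, in which the Tn5 transposase cuts open DNA, in Ccd18-Co, a fibroblast line of the human colon used up to passage 20. The 11 groups hold 4 libraries each: an unstimulated group and groups given IL1B (interleukin-1 beta), IL6, IL13, IL17A, IL22, IFNA (interferon alpha), IFNG (interferon gamma), TGFB1, TNF or OSM (oncostatin M). All cells were kept in serum-free medium for 72 h beforehand and then for 24 h with or without the cytokine, at 0.1 ng per ml for IL1B and 10 ng per ml for the others per the labels. The study's text also gives a lower IL1B dose in one place, so the IL1B dose is not settled. The 11 groups share 1 line grown in culture, and the labels do not say whether the 4 libraries of a group came from separate cultures, so p-values measure only the spread between these libraries.

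STAT proteins are transcription factors that wait in the cytoplasm. A cytokine receptor brings Janus kinases (JAKs) together, the kinases phosphorylate the STAT, and the STAT enters the nucleus as a dimer that binds DNA at GAS elements or, for STAT2 with IRF9, at interferon-stimulated response elements. STAT2 serves the interferons, STAT3 the IL-6 family (IL6 and OSM, through the shared receptor chain gp130) and IL22, STAT4 the IL-12 response of lymphocytes, STAT5A and STAT5B growth hormone, prolactin and the IL-2 family, and STAT6 IL4 and IL13. In fibroblasts these pathways are known for inflammatory and matrix programmes, and TNF, IL1B, IL17A and TGFB1 act mainly through other factors, such as NF-kB, AP-1 and SMADs.

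The 4 peaks with the largest rises described below are shown first by their sequence, because the letters that STATs, interferon factors, AP-1 and NF-kB are known to bind can be read in them. Each line holds the 300 bases with the most motif matches in a 500-base peak, read from the plus strand of hg38, 5′ to 3′, and capitals mark the matches. The letters searched, on both strands, were TTC and GAA with any 3 bases between for GAS, the same with any 4 bases between for STAT6, GAAA and GAAA with any 2 bases between for the interferon-stimulated response element (ISRE), TGA and TCA with any 1 base between for AP-1, and GGG and CC with any 5 bases between for NF-kB. The GAS and STAT6 letters differ only in spacing and may overlap other matches. The first window, in a STAT3 intron, covers chr17:42354894-42355193 and holds no match, as does its whole peak. The second, in another STAT3 intron, covers chr17:42365113-42365412 and holds 3 STAT6 matches and an AP-1 match 0.5 bases from the middle of the peak. The third, in a STAT5A intron, covers chr17:42294555-42294854 and holds 2 GAS matches, 1 STAT6 match and 1 ISRE match. The fourth, named for STAT5A but lying within the STAT3 gene, covers chr17:42329031-42329330 and holds 1 GAS and 2 NF-kB matches.
STAT3 intron, higher in OSM: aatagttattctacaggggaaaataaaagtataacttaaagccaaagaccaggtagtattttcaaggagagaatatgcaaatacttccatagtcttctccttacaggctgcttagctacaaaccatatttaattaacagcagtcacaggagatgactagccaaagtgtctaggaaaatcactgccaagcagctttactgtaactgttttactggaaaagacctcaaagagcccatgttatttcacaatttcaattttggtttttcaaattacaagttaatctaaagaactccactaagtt
STAT3 intron, higher in TGFB1: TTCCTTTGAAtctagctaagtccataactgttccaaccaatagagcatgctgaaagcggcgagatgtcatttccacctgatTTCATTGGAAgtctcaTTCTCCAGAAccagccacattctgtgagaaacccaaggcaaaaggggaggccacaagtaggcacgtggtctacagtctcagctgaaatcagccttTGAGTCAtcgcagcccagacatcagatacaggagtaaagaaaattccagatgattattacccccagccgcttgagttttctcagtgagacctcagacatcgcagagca
STAT5A intron, higher in IFNG: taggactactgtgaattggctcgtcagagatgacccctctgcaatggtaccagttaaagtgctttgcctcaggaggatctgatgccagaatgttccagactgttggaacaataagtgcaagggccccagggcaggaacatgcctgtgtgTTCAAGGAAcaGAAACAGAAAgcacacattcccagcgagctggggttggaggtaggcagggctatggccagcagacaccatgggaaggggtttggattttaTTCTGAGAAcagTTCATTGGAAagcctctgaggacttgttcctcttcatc
STAT5A-named peak in STAT3, higher in TNF and IL1B: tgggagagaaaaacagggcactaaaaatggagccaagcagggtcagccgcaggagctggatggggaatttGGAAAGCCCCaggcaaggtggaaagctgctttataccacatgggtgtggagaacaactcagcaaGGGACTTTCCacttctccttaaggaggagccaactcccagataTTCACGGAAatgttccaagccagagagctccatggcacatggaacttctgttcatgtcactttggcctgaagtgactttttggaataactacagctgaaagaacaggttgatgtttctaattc

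A match is a description of the letters, not of a bound site. Among all 407383 peaks, 17.2% held the GAS letters, 14.4% the STAT6 letters, 9.11% the ISRE letters, 25.7% the AP-1 letters and 50.5% the NF-kB letters. The STAT gene peaks were close to that, with 24 (16.7%), 20 (13.9%), 11 (7.64%), 31 (21.5%) and 81 (56.2%) of 144.

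Values are read coverage summed over the 500 bases of a peak, divided by the library's scaled total and given per megabase of it (per Mb), so peaks of equal width can be set side by side. Library totals ran from 148.8 to 823.1 Mb with a median of 416.3 Mb, and 3 reads of 75 bases were worth 0.274 to 1.52 per Mb. IL6 replicate 4 was the shallowest library and had 27.1% of all peaks at 0, so the IL6 calls are also given without it. Fibroblast identity was checked on the promoters of marker genes: the 6 of 9 fibroblast markers with a promoter-class peak (COL1A1, COL1A2, COL3A1, LUM, PDGFRB and VIM) summed to 46.4 to 84.1 per Mb per library, against 1.61 to 4.89 for 4 endothelial markers. CD14 was the 1 of 5 leukocyte markers with such a peak, at 0.333 to 3.98 per Mb, and none of 5 epithelial markers had one. The fibroblast markers DCN, PDGFRA and THY1 had none either. Over all libraries single fibroblast markers had means of 0.548 to 24.9 per Mb (median 11.2), and single endothelial markers 0.429 to 1.55 (median 0.548). The lowest fibroblast marker thus lay within the endothelial range. The fibroblast sum was 46.4 to 61.3 per Mb in TNF and 50.2 to 57.4 in IL1B, against 62.5 to 67.8 in the unstimulated group and 70.8 to 84.1 in IL13, and its part in the TNF, IL1B and IL13 results was not tested. Tests used limma on log2 values (pseudocount 0.5) over 407176 peaks and all 44 libraries, and a peak is called where the adjusted p is below 0.05. The median log2 change over all peaks was -0.216 in OSM and 0.153 in TGFB1 and within 0.1 of 0 in the other cytokines. The median peak was at 0.78 per Mb, so these shifts describe weak peaks and are no correction for strong ones. With offsets smoothed against mean coverage the medians were 0.0068 in OSM and -0.0121 in TGFB1. Named OSM and TGFB1 calls against unstimulated that were lost with those offsets are given as such below.

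The gene name in the label is not always the gene a peak lies in: 83 of the 144 peaks lie inside the protein-coding gene they are named for in GENCODE 44. STAT3, STAT5A and STAT5B are neighbours on chromosome 17, where the 3' ends of STAT3 (chr17:42313324-42388540, minus strand) and STAT5A (chr17:42287547-42311943, plus strand) face each other and the 5' ends of STAT5A and STAT5B (chr17:42199176-42288633, minus strand) overlap. For this reason 17 of the 43 STAT5A peaks lie inside the STAT3 gene. All 9 STAT6 peaks lie inside LRP1, a lipoprotein receptor gene that adjoins STAT6 on chromosome 12, and only 1 of them is also inside STAT6. Most peaks were weak: 78 of 144 had a mean under 1 per Mb over the 44 libraries and 10 had a mean of at least 10 per Mb, and the median was 0.867 against 0.78 for all peaks.

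**Figure D1:**
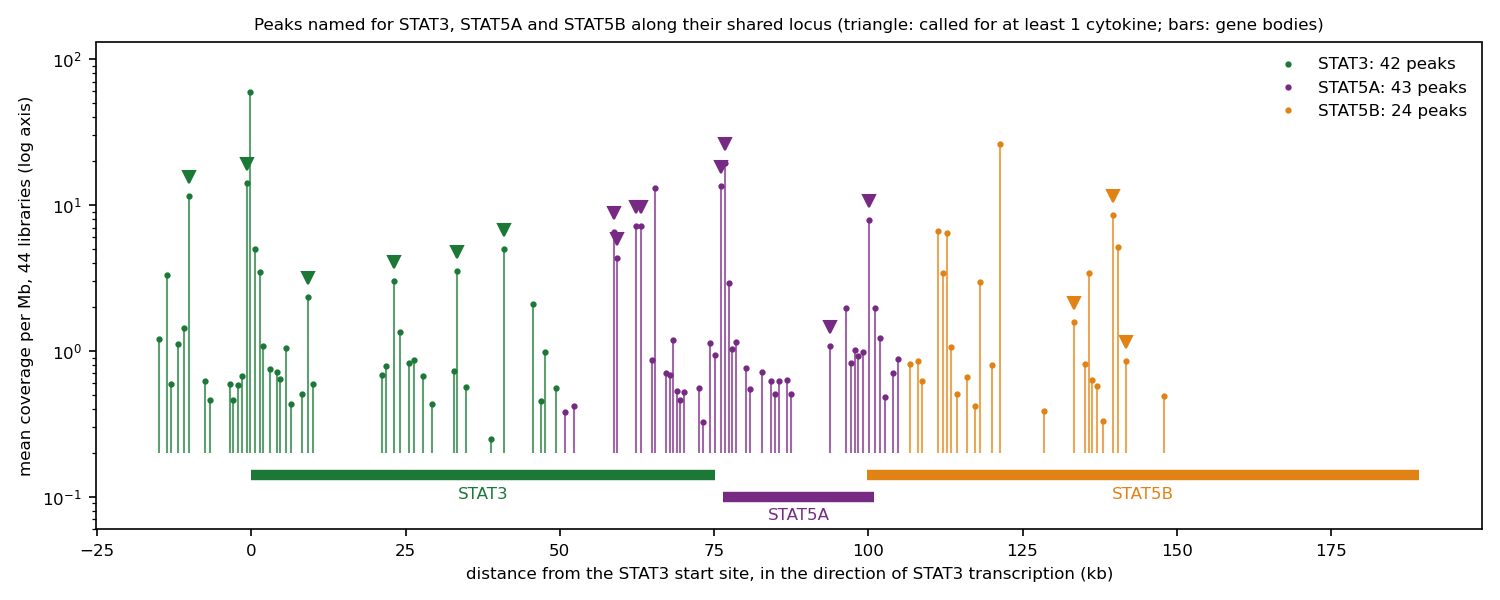
Mean coverage per Mb over 44 libraries (log axis) of the 42 STAT3, 43 STAT5A and 24 STAT5B peaks, against the distance in kb from the STAT3 start in the direction of STAT3 transcription; horizontal bars are gene bodies and triangles mark peaks called for at least 1 cytokine. The STAT3 promoter peak at 59.6 per Mb stands above every other peak, and purple STAT5A peaks run on into the STAT3 bar.

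STAT2 and STAT3 had high coverage at their promoters and the other 4 genes did not, in every group. The lead promoter peak of STAT2 (chr12:56360018-56360518, just upstream of its start) read 62.0, 62.4, 67.6 and 64.7 per Mb in the 4 unstimulated libraries, a mean of 64.2 ± 2.59 (SD, n = 4). That of STAT3 (chr17:42388370-42388870) read 59.2, 61.9, 62.5 and 54.1, a mean of 59.4 ± 3.81. The promoter-class peak of STAT5B (chr17:42276976-42277476) was at 6.32 ± 2.70, that of STAT6 (chr12:57133229-57133729) at 5.41 ± 1.03, that of STAT5A (chr17:42287181-42287681) at 2.38 ± 0.663 and that of STAT4 (chr2:191151515-191152015) at 0.427 ± 0.453 per Mb. The unstimulated ranges of STAT2 and STAT3 overlapped each other and lay above those of the other 4 genes. The STAT4 value is close to what 3 reads were worth, so its level was not resolved at this depth.

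Promoter class was not always the promoter of the main transcript. The peak over the STAT6 start (chr12:57111068-57111568) carries the name LRP1 in the table, and it was at 9.89 ± 0.352 per Mb in the unstimulated group, between 8.21 and 11.8 in the cytokine groups, and called for none of them. The peaks over the STAT4 start (chr2:191150775-191151275) and the STAT5B start (chr17:42276154-42276654) are exonic in the table, at 2.70 ± 0.671 and 2.94 ± 0.872 per Mb unstimulated, and were also called for none. The peak over the STAT5A start (chr17:42288159-42288659) is exonic as well, but it was called for IL1B, TNF and IFNA and is described below. The start peaks of STAT5B, STAT5A and STAT4 hold 82.4%, 74.8% and 54.8% GC, against 63.2% and 64.2% at the STAT2 and STAT3 promoters. The part of GC content in these differences between genes was not tested.

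**Figure D2:**
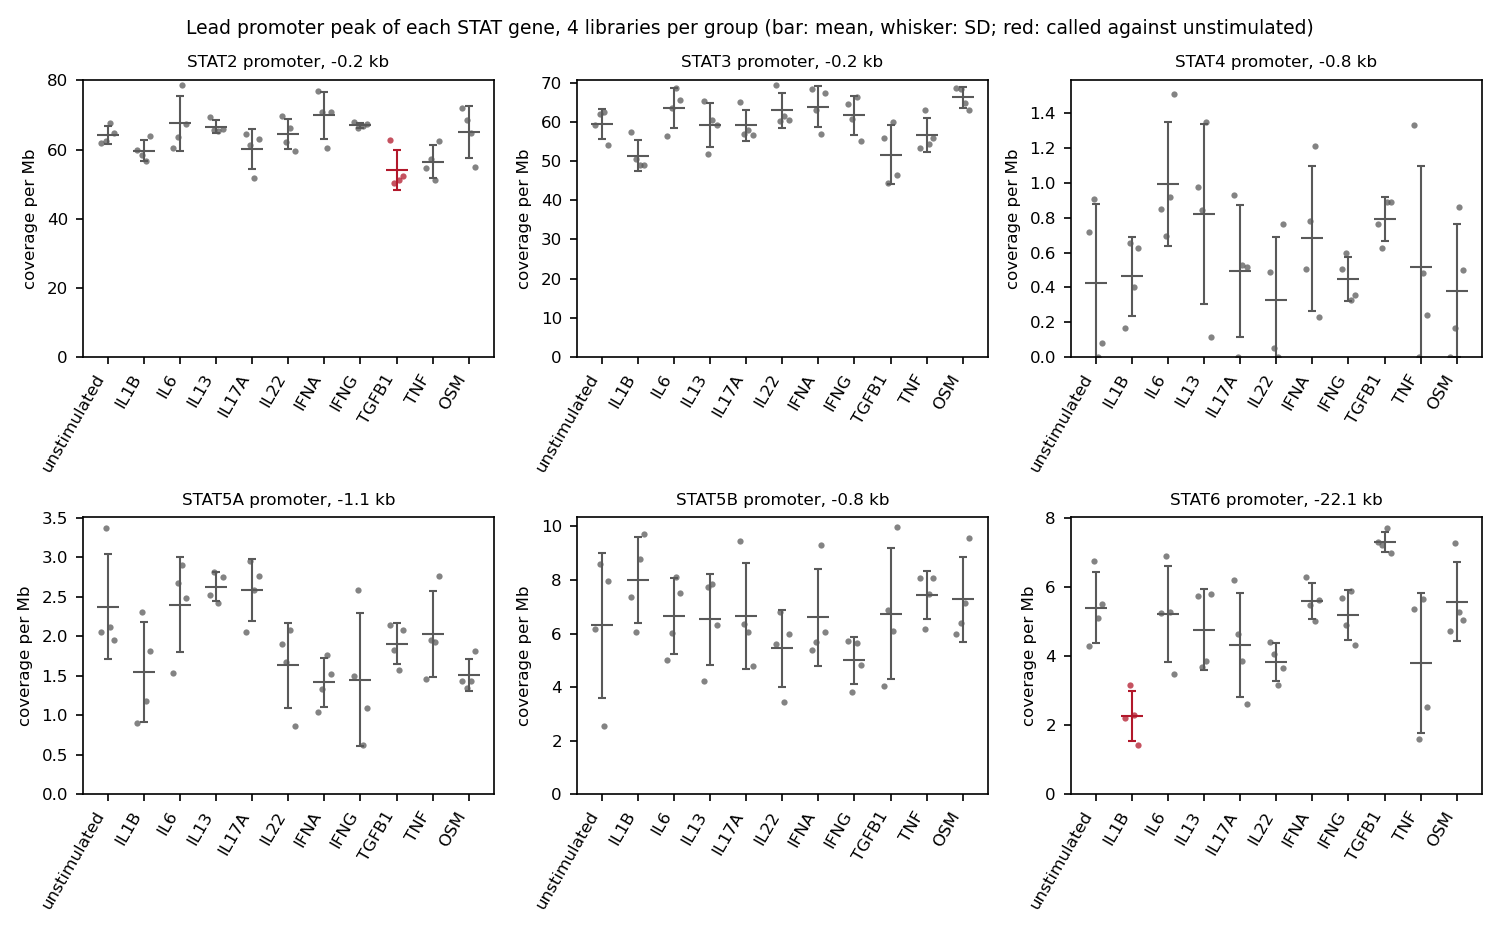
Coverage per Mb of the lead promoter-class peak of each STAT gene, with 1 point per library, 4 per group, a bar for the mean and whiskers for the SD; the panel titles give the distance in kb from the gene's start and red marks a call against unstimulated. STAT2 and STAT3 lie between 44.5 and 78.6 per Mb throughout, STAT4 never passes 1.51, and red appears only for TGFB1 at STAT2 and IL1B at the STAT6-named peak.

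The lead promoters moved little. Over the 10 cytokines the mean of the STAT2 promoter ran from 54.2 per Mb in TGFB1 to 69.9 in IFNA, and that of STAT3 from 51.4 in IL1B to 66.3 in OSM. When the 11 groups were put in order of their mean, each group's 4 libraries overlapped those of the next group for the promoters of STAT2, STAT3, STAT4, STAT5A and STAT5B. The F test over the 11 groups passed for the STAT2 and STAT3 promoters (adjusted p = 6.07e-05 and 3.54e-05) and did not for those of STAT4, STAT5A and STAT5B (0.488, 0.218 and 0.371). It also passed for the STAT6 promoter-class peak (4.2e-06), where the 4 TGFB1 libraries, at 7.32, 7.21, 7.71 and 7.0 per Mb, lay above those of the next group, IFNA, without being called against unstimulated (0.417). The STAT3 promoter was not called for any cytokine: the 4 OSM libraries (68.7, 68.4, 64.8 and 63.1 per Mb) lay above the unstimulated range, with a log2 change of 0.16 ± 0.08 (SE) and an adjusted p of 0.284.

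Counted over the 144 peaks, 23 were called for at least 1 cytokine against unstimulated: 13 for 1, 8 for 2, 1 for 3 and 1 for 4 cytokines. All 10 comparisons share the same 4 unstimulated libraries. TNF had the most calls, 10 (6 raised and 4 lowered), which is 6.94% of the STAT gene peaks against 4.37% of all peaks (2.67% raised and 1.69% lowered). TGFB1 had 8 (2 raised and 6 lowered), 5.56% against 3.51% (1.98% raised and 1.52% lowered). IL1B had 7 (5 raised and 2 lowered), 4.86% against 3.5% (1.72% raised and 1.79% lowered).

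Among the cytokines that signal through STAT proteins, OSM had 3 (2 raised and 1 lowered), 2.08% against 2.85% (1.55% raised and 1.29% lowered), and IFNA had 3 (1 raised and 2 lowered), 2.08% against 0.847% (0.513% raised and 0.334% lowered). IFNG had 2, both raised, 1.39% against 1.75% of all peaks called and 1.48% raised, and IL13 had 2, both lowered, 1.39% against 1.61% called and 0.88% lowered. IL6 had 1, lowered, 0.694% against 0.107% called and 0.0643% lowered. IL22 had none in limma's test, with 0.0366% of all peaks called. At an unadjusted p under 0.05 in limma's test it had 9 of 144 STAT gene peaks and 29097 of all 407176 tested peaks. IL17A had none, with 0.0398% of all peaks called. At the same unadjusted p it had 11 of 144 STAT gene peaks and 26247 of all 407176 tested peaks. These unadjusted counts are not read as changes particular to STAT genes.

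Neither the number of calls nor their split is far from the background in most of these comparisons, and with at most 10 calls each the shares rest on few peaks. The OSM split depends on the scaling: with offsets smoothed against GC content 8 of 9 STAT gene calls were raised, in place of 2 of 3, while the raised share of all calls went from 54.6% to 88.9%. The TGFB1 raised share of all calls went from 56.5% to 27.3% with the same offsets, with 2 of 10 STAT gene calls raised in place of 2 of 8. Under the same offsets the raised share of all calls also rose from 45.3% to 57.1% in IL13, with library totals alone it was 49.4% in place of 60.6% in IFNA, and with a trimmed mean over all peaks it was 53.2% in place of 39.9% in IL6. Over the 11 groups together the F test passed for 42 STAT gene peaks, 29.2% of the 144, against 21.1% of all peaks: 13 of STAT3, 11 of STAT5A, 8 of STAT5B, 4 of STAT4, 4 of STAT6 and 2 of STAT2.

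**Figure D3:**
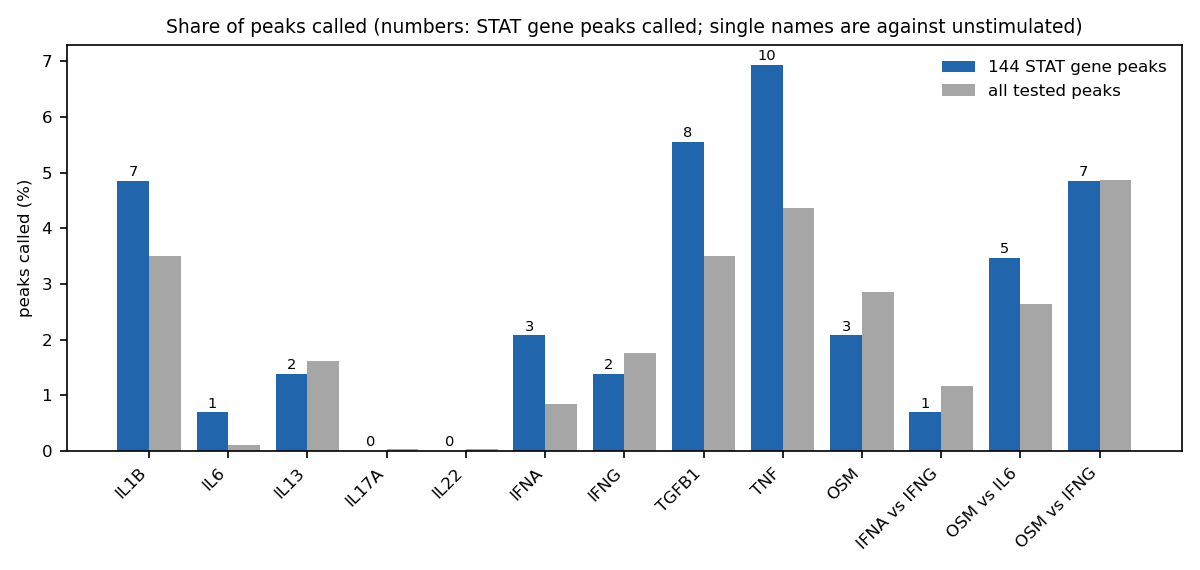
Percent of the 144 STAT gene peaks (blue, with the number of peaks above each bar) and of all 407176 tested peaks (grey) called in each of the 13 comparisons. TNF, TGFB1 and IL1B have the tallest blue bars against unstimulated, with 10, 8 and 7 peaks, and IL17A and IL22 have none.

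STAT2, the interferon partner of IRF9, had its clearest difference between the interferons in an intron. The peak 1.11 kb downstream of the start (chr12:56358751-56359251) read 14.6, 14.9, 14.7 and 17.0 per Mb unstimulated. The IFNA libraries read 8.82, 11.8, 11.4 and 7.94, and the IFNG libraries 17.5, 21.3, 20.3 and 19.3. All 4 IFNA libraries lay below and all 4 IFNG libraries above every unstimulated one. Against unstimulated it fell in IFNA, with a log2 change of -0.61 ± 0.16 (adjusted p = 0.023), and in IFNG the log2 change was 0.35 ± 0.16 and was not called (adjusted p = 0.406). Directly, IFNA against IFNG gave -0.95 ± 0.16 (adjusted p = 6.45e-06), from means of 9.97 and 19.6 per Mb. That was the 1 STAT gene peak of 144 called in this comparison, 0.694% against 1.17% of all peaks, and it was kept whichever library was left out.

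The same STAT2 intronic peak was lower in TGFB1, with libraries at 10.3, 10.2, 13.1 and 8.25 per Mb, below all 4 unstimulated libraries (log2 change -0.54 ± 0.16, adjusted p = 0.0258, not called with offsets smoothed against mean coverage, adjusted p = 0.128). IL1B libraries, at 11.1, 11.8, 11.1 and 11.5 per Mb, also lay below the unstimulated range, without passing the test (adjusted p = 0.153). The calls against unstimulated were less firm than the difference between interferons: the IFNA call was lost without unstimulated replicate 2 or 4 or IFNA replicate 1 or 4 (adjusted p from 0.0509 to 0.167), and the TGFB1 call without unstimulated replicate 2 or 4 or TGFB1 replicate 1, 2 or 4 (0.0501 to 0.16). The STAT2 promoter fell slightly in TGFB1, by 0.25 ± 0.08 on the log2 scale (adjusted p = 0.0394). Its TGFB1 libraries read 62.7, 50.4, 51.2 and 52.3 per Mb and overlapped the unstimulated ones. With offsets smoothed against mean coverage the TGFB1 promoter difference was 0.00 with an adjusted p of 0.999, and it was also lost without any single unstimulated library or without TGFB1 replicate 2, 3 or 4 (0.0526 to 0.152).

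STAT3, the main STAT of gp130 cytokines, was opened at 1 intronic site by OSM and at another by TGFB1. The OSM site lies 33.4 kb downstream of the start (chr17:42354793-42355293) and read 2.72, 2.78, 3.31 and 2.33 per Mb unstimulated and 9.99, 10.3, 10.1 and 9.91 in OSM. The means were 2.79 ± 0.402 and 10.1 ± 0.185, a ratio of 3.62 and a log2 change of 1.69 ± 0.29 (adjusted p = 4.74e-06). Every OSM library lay above all 40 others, whose highest value was 5.04 in IL17A replicate 1. IL6, which shares gp130 with OSM, was at 2.87, 2.57, 0.69 and 1.38 per Mb (log2 change -0.57 ± 0.29, adjusted p = 0.567; without replicate 4, -0.50 and 0.951), and IL22 at 1.37, 2.54, 3.74 and 2.31 (-0.19, adjusted p = 0.933). OSM against IL6 differed by 2.27 ± 0.29 (adjusted p = 1.6e-10), and by 2.2 ± 0.30 without IL6 replicate 4 (3.88e-09). OSM against IFNG differed by 1.77 ± 0.29 (6.58e-07).

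The TGFB1 site lies 23.1 kb downstream of the STAT3 start (chr17:42365057-42365557) and read 2.82, 3.76, 1.43 and 0.935 per Mb unstimulated and 7.43, 9.75, 6.36 and 6.42 in TGFB1. The 4 TGFB1 libraries lay above every other library, the nearest being TNF replicate 1 at 6.02. The log2 change was 1.66 ± 0.29 (adjusted p = 1.07e-05, a ratio of means of 3.35). OSM libraries read 3.54, 4.12, 3.44 and 4.44 per Mb, which overlapped the unstimulated ones (log2 change 0.80 ± 0.29, adjusted p = 0.117). They were above IL6 by 1.18 (adjusted p = 0.00671, and 0.0814 without IL6 replicate 4) and above IFNG by 0.99 (0.0229, lost without IFNG replicate 2 or 4 or OSM replicate 2 or 4, at 0.0636 to 0.0769).

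Interferon gamma opened one more STAT3 intronic site, 9.23 kb from the start (chr17:42378958-42379458). It read 1.16, 1.55, 0.814 and 2.36 per Mb unstimulated and 4.84, 4.24, 2.95 and 3.95 in IFNG, with no overlap. The log2 change was 1.23 ± 0.33 (adjusted p = 0.0185), and the means of all 10 cytokine groups were higher than the unstimulated mean. The call was lost with a pseudocount of 0.1 (adjusted p = 0.082) and without unstimulated replicate 1 or 3 or IFNG replicate 1, 2 or 4 (0.0523 to 0.141). The peak holds 1 GAS, 1 ISRE and 1 NF-kB match.

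A distal peak 10.2 kb upstream of STAT3 (chr17:42398366-42398866) rose in TNF and IL1B. It read 8.96, 9.38, 11.4 and 6.89 per Mb unstimulated, 20.3, 17.8, 19.8 and 18.3 in TNF and 14.5, 12.8, 18.1 and 13.5 in IL1B. Both groups lay above all unstimulated libraries, with log2 changes of 1.04 ± 0.17 (adjusted p = 7.74e-07) in TNF and 0.67 ± 0.17 (0.00635) in IL1B. The IL1B call was lost without unstimulated replicate 4 or IL1B replicate 3 (0.0744 to 0.0793). IL17A libraries, at 11.7, 12.1, 12.7 and 12.0 per Mb, lay above the unstimulated range but were not called (log2 change 0.41, adjusted p = 0.663).

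In the other direction, the flank of the STAT3 promoter (chr17:42388882-42389382) was lower in TGFB1 and TNF. The mean was 16.2 ± 2.00 per Mb unstimulated, 10.9 ± 2.13 in TGFB1 (log2 change -0.57, adjusted p = 0.0132) and 10.4 ± 0.708 in TNF (-0.61, 0.00387), and both groups lay below all unstimulated libraries. This peak falls outside the rule for named peaks and is given because it was called. With offsets smoothed against mean coverage the TGFB1 calls over all STAT gene peaks went from 8 to 4. The result for this peak under those offsets is not given here. The peak 41.0 kb into the gene (chr17:42347195-42347695) was the only STAT gene call for IL6. It read 5.79, 8.91, 6.01 and 5.41 per Mb unstimulated and 3.45, 4.87, 3.77 and 0.633 in IL6, where the lowest value belongs to the shallow replicate 4. The log2 change was -1.12 ± 0.25 (adjusted p = 0.0194) and -0.62 ± 0.25 without that library (0.815). The call was also lost without unstimulated replicate 2 or 3, and no STAT gene peak was called for IL6 without replicate 4, when the calls over all peaks went from 436 to 23. All 10 cytokine groups had a lower mean there than the unstimulated group.

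The largest changes of the 6 genes were at peaks named for STAT5A, which with STAT5B carries growth hormone, prolactin and IL-2 family signals. The largest was at the peak that the table names for STAT5A but that lies in the STAT3 gene, 40.7 kb downstream of the STAT5A start (chr17:42328930-42329430), and overlaps an exon of a secondary STAT3 transcript. It read 2.31, 2.56, 1.99 and 2.22 per Mb unstimulated. TNF libraries read 15.8, 16.0, 12.7 and 16.1 and IL1B libraries 6.91, 7.37, 9.32 and 8.15. Both groups lay above all libraries of the other 9 groups, and TNF lay above IL1B. The ratio of means was 6.67 in TNF (log2 change 2.50 ± 0.27, adjusted p = 2.05e-14) and 3.5 in IL1B (1.60 ± 0.27, 3.02e-06), and both calls were kept under every alternative and whichever library was left out. IL17A, IFNA and IFNG libraries lay above the unstimulated range without being called, at means of 4.04, 3.63 and 3.09 per Mb. The sequence printed above holds an NF-kB match, GGGACTTTCC, at -11.0 bases from the middle of this peak.

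The adjoining peak (chr17:42329443-42329943, exonic in the table) rose in TNF only among the called cytokines, from 5.45, 4.63, 4.03 and 5.76 per Mb unstimulated to 8.58, 11.5, 13.0 and 10.6 (log2 change 1.06 ± 0.22, adjusted p = 0.000142), and the difference between TNF and IL1B was not tested. The peak 37.5 kb from the STAT5A start (chr17:42325767-42326267) fell in IL1B, from 8.12, 8.55, 8.24 and 5.89 per Mb to 5.35, 4.20, 2.22 and 3.86 (-0.94 ± 0.22, 0.00151; 0.0615 without IL1B replicate 3). Its 4 TNF libraries, at 5.42, 9.73, 8.11 and 7.52, overlapped the unstimulated ones (log2 change -0.01). Beside it, chr17:42324981-42325481, outside the rule for named peaks, was higher in TNF, at a mean of 9.76 ± 2.16 against 5.78 ± 2.34 per Mb with overlapping libraries (0.75 ± 0.21, 0.0156). All of these peaks also lie within the STAT3 gene.

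Inside STAT5A itself, IFNG opened an intronic site 6.21 kb from the start (chr17:42294454-42294954). It read 0.356, 0.599, 1.36 and 0.545 per Mb unstimulated, values at about the worth of 3 reads, and 5.57, 3.77, 5.59 and 4.50 in IFNG. IFNA libraries, at 2.38, 1.08, 1.66 and 1.95, overlapped the unstimulated ones, and the other 8 cytokine groups had means from 0.264 to 1.03. The IFNG libraries lay above all others, with a log2 change of 2.19 ± 0.39 (adjusted p = 1.58e-05), which was kept under every alternative with values from 1.34 to 2.72 by pseudocount and scaling. IFNA against unstimulated gave 0.93 ± 0.39 (0.365), IFNA against IFNG -1.26 ± 0.39 (0.088), and OSM against IFNG -2.83 ± 0.39 (2.34e-09), which ran from -4.00 to -1.59 under the alternatives, with OSM libraries at 0 to 0.463 per Mb. In the sequence printed above, a GAS match TTCAAGGAA lies 3.5 bases from the middle of the peak and an ISRE match GAAACAGAAA 15.0 bases from it.

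The peak over the STAT5A start (chr17:42288159-42288659) was higher than unstimulated in all 10 cytokine groups. It read 5.70, 4.29, 3.90 and 6.14 per Mb unstimulated, and 8 of the 10 groups had all 4 libraries above these. It was called for IL1B (7.88, 7.77, 10.0 and 11.6; log2 change 0.84 ± 0.20, adjusted p = 0.00246), TNF (7.91, 10.4, 9.82 and 7.67; 0.79, 0.00425) and IFNA (6.87, 10.8, 11.2 and 6.36; 0.74, 0.0371). The IFNA call was lost with library totals, with a trimmed mean over all peaks and with offsets smoothed against mean coverage or GC content (0.052 to 0.166) and without unstimulated replicate 2 or 3 or IFNA replicate 2 or 3 (0.142 to 0.212). Since the 10 comparisons share the unstimulated libraries, a low unstimulated group and a rise in each cytokine cannot be told apart here.

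The 3' end of STAT5A was lower in TGFB1. The peak over the end of the gene (chr17:42311496-42311996) was at 22.1 ± 3.40 per Mb unstimulated, 15.9 ± 1.49 in TGFB1 (log2 change -0.46, adjusted p = 0.0253) and 16.4 ± 1.71 in TNF (-0.42, 0.0452), and the next one (chr17:42312107-42312607), just past the end, was at 14.7 ± 2.70 and 8.96 ± 0.930 in TGFB1 (-0.67, 0.00197). Both are outside the rule for named peaks. With offsets smoothed against mean coverage the TGFB1 calls over all STAT gene peaks went from 8 to 4. The named STAT3 and STAT5B calls for TGFB1 were among those kept. The TGFB1 calls at both peaks above and at the STAT3 promoter flank were thus not all kept.

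STAT5B was changed at 3 named introns. The strongest peak of the gene (chr17:42266816-42267316, 9.32 kb from the start) had a mean of 26.4 per Mb over all libraries, ranged between group means of 22.2 in TGFB1 and 31.1 in TNF and was called for no cytokine. The peak 27.6 kb from the start (chr17:42248517-42249017) closed in TNF and TGFB1. It read 9.90, 12.8, 7.65 and 11.1 per Mb unstimulated, 5.17, 2.94, 4.32 and 3.88 in TNF and 3.36, 6.64, 6.22 and 6.17 in TGFB1. Neither group overlapped the unstimulated one, with log2 changes of -1.25 ± 0.20 (adjusted p = 3.82e-07) and -0.85 ± 0.20 (0.00252; 0.0749 without TGFB1 replicate 1).

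The STAT5B peak 21.3 kb from the start (chr17:42254849-42255349) opened in TGFB1 and IL1B. It read 0.786, 0.799, 0.531 and 0.897 per Mb unstimulated, near the worth of 3 reads, 4.04, 3.34, 2.71 and 2.70 in TGFB1 and 2.87, 3.37, 2.74 and 1.57 in IL1B. The log2 changes were 1.55 ± 0.36 (adjusted p = 0.00231) and 1.30 ± 0.36 (0.0177). The IL1B call was lost with a pseudocount of 0.1 (0.0988) and without unstimulated replicate 3 or IL1B replicate 1, 2 or 3 (0.0534 to 0.0849). TNF, at 2.18, 2.06, 1.66 and 2.30 per Mb, also lay above the unstimulated libraries and was not called (1.03, 0.0918). The means of all 10 cytokine groups were higher than the unstimulated mean at this peak, and their comparisons share the unstimulated libraries. The last (chr17:42246451-42246951) read 0.226, 1.92, 1.67 and 0.753 per Mb unstimulated and 0, 0, 0 and 0.227 in IL13. It was called (-1.43 ± 0.39, adjusted p = 0.028), but its libraries overlapped, its IL13 values are at or under the worth of 3 reads, and the call was lost with a pseudocount of 2 (0.0562), with library weights (0.067) and without unstimulated replicate 2 or 3 or IL13 replicate 1, 2 or 3 (0.0743 to 0.173).

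STAT4, the IL-12 STAT of lymphocytes, had little signal at its start and 2 strong peaks upstream, outside any protein-coding gene. The nearer, 15.5 kb upstream (chr2:191166218-191166718), was lower in every cytokine group and called for 4 of them, more than any other STAT gene peak. It read 12.3, 12.0, 13.1 and 13.8 per Mb unstimulated. OSM libraries read 8.19, 7.40, 5.90 and 5.51 (log2 change -0.89 ± 0.18, adjusted p = 0.000436) and TNF libraries 6.35, 7.53, 10.5 and 7.0 (-0.70, 0.00794). IL13 libraries read 8.41, 5.10, 10.7 and 7.35 (-0.71, 0.0161) and IFNA libraries 8.21, 8.89, 4.16 and 10.5 (-0.72, 0.0207). All 4 groups lay below the unstimulated range. The 4 calls share the same unstimulated libraries, which had the highest mean of the 11 groups (12.8 per Mb, with IL17A next at 12.7). A high unstimulated group and a fall in each cytokine cannot be told apart here. The OSM call was kept in every alternative. The TNF call was lost without TNF replicate 1 (0.0619), the IL13 call without unstimulated replicate 4 or IL13 replicate 2 (0.0725 to 0.225) and with a trimmed mean over all peaks or GC offsets (0.0526 to 0.0706). The IFNA call was lost without unstimulated replicate 3 or 4 or IFNA replicate 3 (0.067 to 0.386) and with quality weights (0.0528).

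The farther STAT4 peak, 21.2 kb upstream (chr2:191171994-191172494), rose in TNF and OSM, from 14.1, 13.6, 14.1 and 12.9 per Mb unstimulated to 25.0, 19.3, 16.5 and 22.7 in TNF and 19.5, 21.4, 21.4 and 20.0 in OSM. The log2 changes were 0.57 ± 0.15 in both (adjusted p = 0.00595 and 0.0112). The TNF call was lost without TNF replicate 1 (0.0712) and the OSM call with offsets smoothed against mean coverage (0.0764). These neighbouring peaks thus had opposite signs in TNF and in OSM.

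STAT6, the factor of IL4 and IL13, had peaks called for IL1B, all in LRP1, and none of its 9 passed the test for IL13. The nearest to passing for IL13 was chr12:57135874-57136374, which read 3.08, 5.92, 3.02 and 4.94 per Mb unstimulated and 7.70, 5.67, 10.6 and 8.19 in IL13, with 1 library overlapping (log2 change 0.87 ± 0.26, adjusted p = 0.0509). It passed under 6 of the 13 alternatives that leave out no library (adjusted p from 0.0129 to 0.0884). Beside it, chr12:57135339-57135839 had a mean of 7.52 ± 1.16 in IL13 against 5.09 ± 1.48 unstimulated (0.55 ± 0.25, 0.344). IL13 had the highest of the 11 group means at both, and the F test over the groups passed at both (4e-07 and 1.37e-06). These 2 peaks, which also lie in LRP1, are outside the rule for named peaks and were chosen after their values were seen. The promoter-class peak 22.1 kb upstream of the STAT6 start (chr12:57133229-57133729) fell in IL1B, from 4.29, 6.75, 5.10 and 5.50 per Mb to 2.21, 3.18, 2.29 and 1.42, with no overlap (log2 change -1.11 ± 0.25, adjusted p = 0.000829). The peak 25.5 kb upstream (chr12:57136611-57137111) read 3.79, 1.54, 3.37 and 1.37 per Mb unstimulated and 5.52, 4.06, 4.23 and 5.33 in IL1B (0.90 ± 0.28, adjusted p = 0.0483). Its call was lost with a trimmed mean over all peaks, with offsets smoothed against mean coverage or GC content, with a pseudocount of 0.1 and with no filter (0.0501 to 0.0743), and without unstimulated replicate 2 or 4 or any single IL1B library (0.0596 to 0.259).

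**Figure D4:**
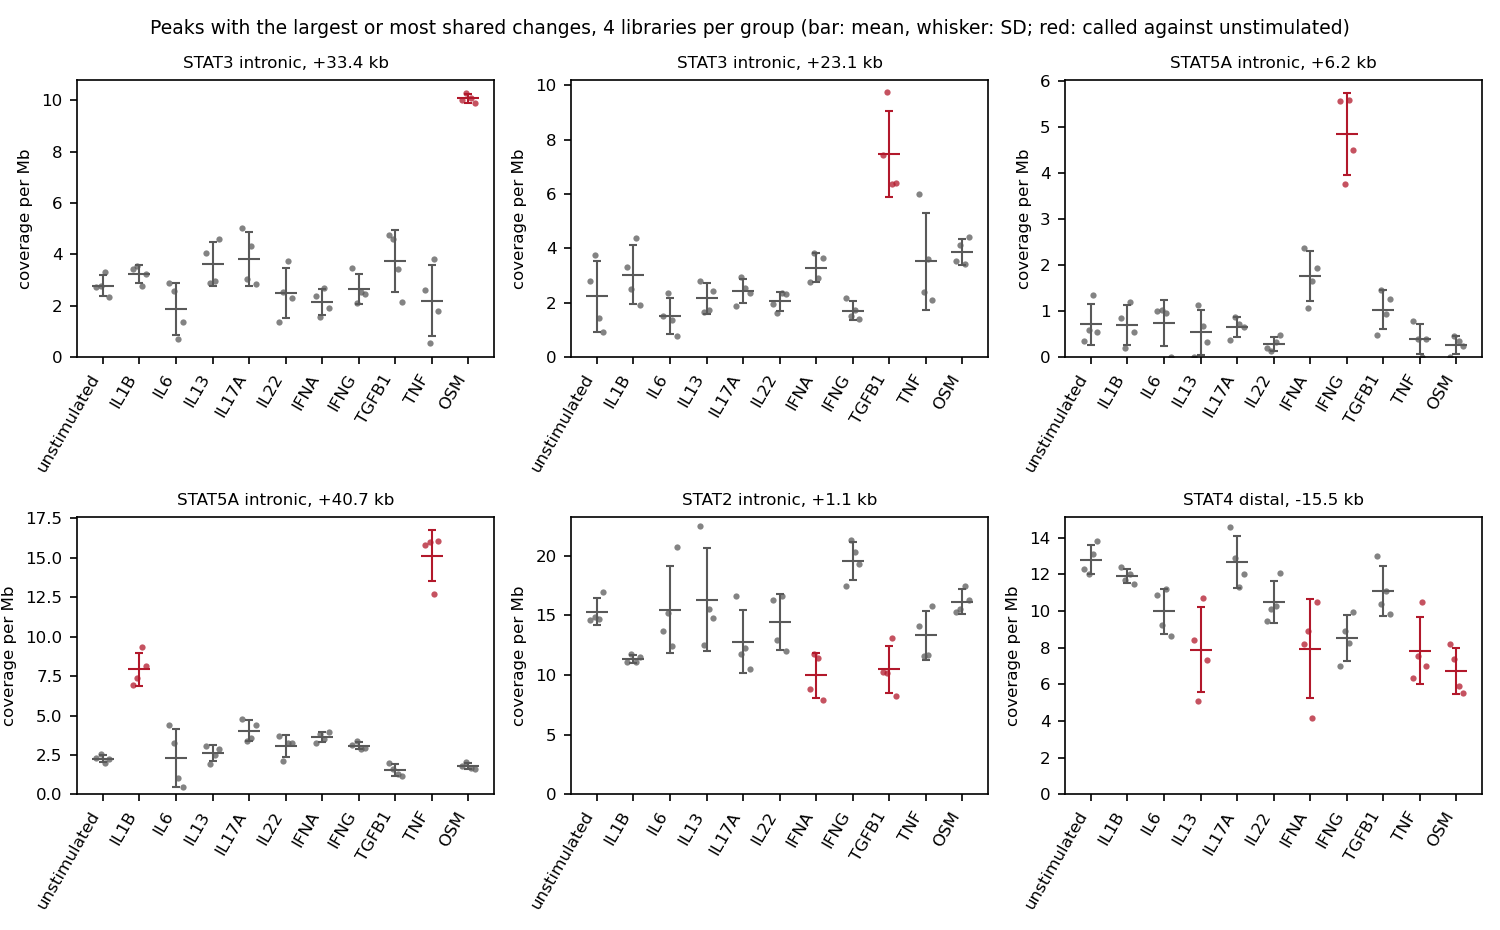
Coverage per Mb by group for 6 changed peaks, with 1 point per library, 4 per group, a bar for the mean and whiskers for the SD; titles give the gene name in the table and the distance in kb from that gene's start, and red marks a call against unstimulated. OSM at the STAT3 peak (9.91 to 10.3), TGFB1 at the next (6.36 to 9.75), IFNG at STAT5A (3.77 to 5.59) and TNF at the STAT5A-named peak (12.7 to 16.1) each stand above all other groups.

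**Figure D5:**
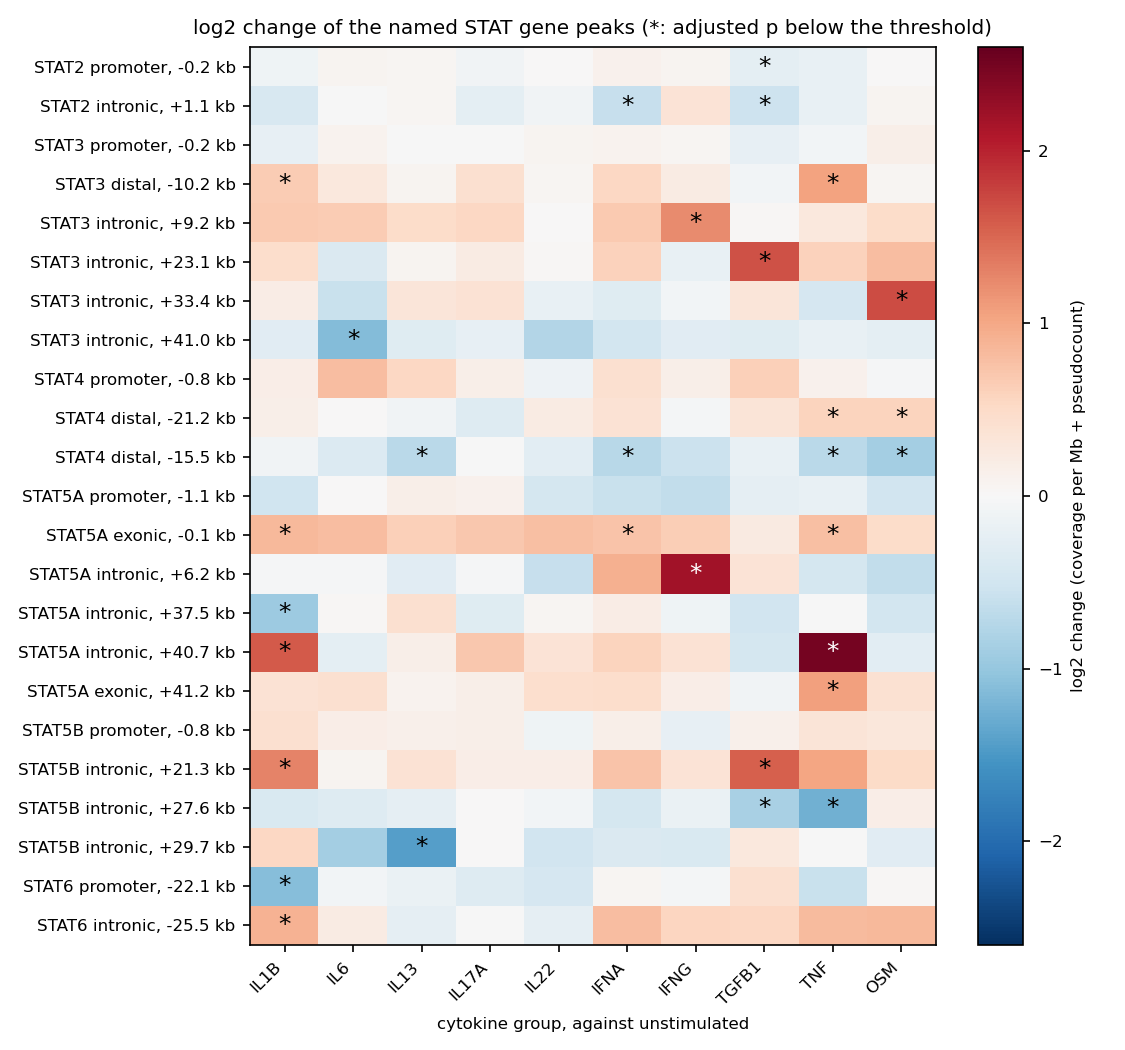
Log2 change against unstimulated (colour, red higher and blue lower) of the 23 named STAT gene peaks in the 10 cytokine groups, with rows ordered by gene and distance in kb from its start; asterisks mark calls. The darkest cells are TNF at the STAT5A-named peak (2.50) and IFNG at STAT5A (2.19), and the IL17A and IL22 columns hold no asterisk.

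Set directly against IL6, OSM called 5 STAT gene peaks, all higher in OSM (3.47% against 2.64% of all peaks), and 2 without IL6 replicate 4. Besides those above, the 5 include the STAT5B intronic peak chr17:42252439-42252939, which read 6.30, 5.36, 7.01 and 4.88 per Mb in OSM and 3.50, 3.62, 1.13 and 2.34 in IL6 (log2 difference 1.10, adjusted p = 0.00978). The same STAT5B peak was at 1.28, 2.34, 1.76 and 3.25 in IFNG (OSM against IFNG 1.31, 0.000433). The farther STAT4 peak was higher in OSM than in IL6 by 0.56 (0.0145) and than in IFNG by 0.63 (0.00181). The STAT4 call against IL6 was lost with offsets smoothed against mean coverage (0.0837) and without IL6 replicate 1 or 4 or OSM replicate 2 or 3 (0.0523 to 0.0919). The STAT3 peak 41.0 kb from the start was higher by 0.86 (0.0306), and by 0.36 without IL6 replicate 4 (0.593), and it was also lost without OSM replicate 1, 3 or 4. Offsets smoothed against GC content took the share of all calls that were higher in OSM from 61.6% to 88.1%.

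OSM against IFNG called 7 STAT gene peaks (4.86% against 4.87% of all peaks), 4 higher and 3 lower in OSM. Those lower were the STAT5A site opened by IFNG, a STAT3 intronic peak 49.4 kb from the start (chr17:42338763-42339263; 0.373, 0.111, 0.144 and 0.252 per Mb in OSM, 2.12, 2.07, 0.603 and 1.85 in IFNG; log2 difference -1.52, adjusted p = 0.00511) and a weak STAT4 intronic peak (chr2:191128111-191128611; 0, 0, 0 and 0.122 against 0.751, 0.746, 0.485 and 1.01; -1.22, 0.0349). These STAT3 and STAT4 peaks and the STAT5B peak above were named after their values were seen. Offsets smoothed against GC content took the share of all calls that were higher in OSM than in IFNG from 37.9% to 73.1%.

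The genes around the STATs in the pathway were followed at their lead promoter peaks, which 37 of 39 listed genes had. In OSM 9 of 37 rose and none fell (24.3%), against 3.77% of the 16765 lead promoters of all genes called (535 raised and 97 lowered). The OSM count ran from 4 raised with offsets smoothed against mean coverage to 16 with a trimmed mean over all peaks, with none lowered under any of the 13 alternatives that leave out no library. SOCS3, a feedback inhibitor of gp130 signalling, went from 16.5 ± 3.00 to 31.4 ± 4.71 per Mb (log2 change 0.91, adjusted p = 1.75e-07), and IL6ST, which encodes gp130, from 25.0 ± 5.35 to 37.1 ± 2.01 (0.58, 8.05e-05). The others were JAK1, IL13RA1, SOCS7, CISH, PTPN1, PTPN11 and PIM1. In IL13 5 rose and none fell (13.5%, against 1.99% of all lead promoters, and 1 of 37 with offsets smoothed against GC content): CISH, a feedback inhibitor, from 35.4 ± 3.15 to 64.6 ± 4.36 (0.86, 4.59e-12), with SOCS1, SOCS7, JAK1 and PIM1.

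In IFNG 3 rose (8.11%, against 2.55% of all lead promoters): IRF1, an interferon-induced transcription factor, from 28.5 ± 3.03 to 42.8 ± 5.30 per Mb (0.58, 8.34e-05), SOCS1 and JAK1. TNF raised 2 (TYK2 and IL6ST; 5.41% against 3.63%) and IL1B raised IL13RA1 and lowered the repressor BCL6 (-1.11, 1.23e-06; 5.41% against 3.92%). TGFB1 lowered SOCS2 and SOCS5 (5.41% against 6.6%), and none was called in IFNA (against 1.4%). IL6, IL17A and IL22 raised JAK1 alone (2.7% each, against 0.352%, 0.113% and 0.418%). The JAK1 log2 change in IL6 was 0.80 (adjusted p = 0.0107), and 0.76 without IL6 replicate 4 (0.101). JAK1, the kinase shared by most of these receptors, was thus called in 6 groups, each against the same 4 unstimulated libraries, whose mean was 10.1 ± 0.339 per Mb. The JAK1 calls in IL6, IL17A and IL22 were lost with offsets smoothed against GC content, where 0 of 37 were called in each. Those in IL6 and IL17A were also lost with a pseudocount of 0.1. None of the 4 lead promoters of STAT3, STAT4, STAT5A and STAT5B was called for any cytokine.

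For each gene the peaks most like its most changed named peak were found by Pearson's r over the 11 group means of log2 coverage, among 168636 peaks of other genes. For the STAT3 peak opened by OSM these were an intronic MACF1 peak (r = 0.956) and an intronic SDC2 peak (0.952). For the STAT5A-named TNF peak they were SEPT11 (0.989) and EMC8 (0.981), and for the nearer STAT4 peak SESN3 (0.967) and RNF219-AS1 (0.962). For STAT5B they were TECTB (0.971) and RHOB (0.966), for STAT2 BCL10 (0.953) and ELMO2 (0.947), and for STAT6 GABRP (0.941) and DISC1 (0.934). The 11 means share their libraries and depth, and these peaks are the nearest of a large search.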

How the data were processed

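ATAC-seq libraries of the 11 groups, 4 each, were processed by the authors with the ENCODE ATAC-seq pipeline 2.2.3 and MACS2 on hg38. The deposited table gives read coverage (signal) summed over 500-base peaks, unscaled, for 44 libraries. How its 407383 peaks were filtered is not given in the sources used here. Peak coordinates are as the table gives them, and those of printed sequences count from 1.

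Coverage was divided by each library's total, corrected by a trimmed mean of log ratios (30% of ratios and 5% of means trimmed at each end) and given per Mb. limma 3.58.1 (R 4.3.3) was fitted to log2(value + 0.5) over all libraries with a group term (33 residual degrees of freedom). Peaks with a mean log2 of -3.0 or less (207) were left out, and p-values were Benjamini-Hochberg adjusted over the other 407176. Fold changes are on the log2(value + 0.5) scale, which understates changes of weak peaks. The model was tested on simulated data. Genes, starts and distances came from GENCODE 44.

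The 23 named peaks are each gene's promoter-class peak of highest mean coverage (its lead promoter) and, among peaks called for a cytokine and at least 1 per Mb in their highest group, up to 5 per gene with the largest called log2 change. The genes, lists and rule were chosen with earlier results of these data known. Other scalings, offsets, pseudocounts, filters, weights, sample sets and left-out libraries were tried as alternatives. The table holds coverage and no read counts, so no counting intervals are given. Some sequences are not reported here.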

Additional observations from a re-analysis of the deposited data

Results flagged for a closer look

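In 12 of 111 groups of 4 libraries checked at the named peaks, 1 library lay far from the other 3, measured as its gap to the nearest of them over the whole range of the group (above the Dixon 95% limit). Chance gives this in about 1 in 20 groups. At the STAT2 promoter these were IL13 replicate 1 (69.4 per Mb, gap share 0.854) and TGFB1 replicate 1 (62.7, 0.846), and at the STAT2 intronic peak unstimulated replicate 4 (17.0, 0.875). At the STAT3 promoter they were replicate 1 of IL1B (57.3, 0.831), of IL17A (65.0, 0.845) and of IL22 (69.4, 0.859), each the highest of its group. At the STAT5A promoter it was unstimulated replicate 2 (3.37, 0.887), at the STAT5A-named TNF peak TNF replicate 3 (12.7, 0.912) and at the peak 37.5 kb from the STAT5A start unstimulated replicate 4 (5.89, 0.838). At STAT5B they were IFNA replicate 3 at the promoter (9.29, 0.831), TGFB1 replicate 1 at the peak 27.6 kb from the start (3.36, 0.857) and IL13 replicate 4 at the peak 29.7 kb from it (0.227 against 3 libraries at 0, 1.0).

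In 9 cases 2 cytokines differed when tested directly in limma at an adjusted p below 0.05. The STAT2 intronic peak was lower in IFNA than in IFNG (log2 difference -0.95), and the STAT5A intronic peak lower in OSM than in IFNG (-2.83). OSM was above IL6 at the STAT3 peak 33.4 kb from the start (2.27), at that 23.1 kb from it (1.18), at that 41.0 kb from it (0.86) and at the farther STAT4 peak (0.56). OSM was above IFNG at the STAT3 peaks 33.4 kb (1.77) and 23.1 kb (0.99) from the start and at the farther STAT4 peak (0.63).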

How the results depend on the processing

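Of 39 called pairs of a named peak and a comparison, 18 kept their call under every alternative, 26 under all 13 alternatives that leave out no library and 19 whichever library was left out. Of 818 alternative values none changed direction, 100 lost the call and 718 kept it. Offsets smoothed against mean coverage lost 7 calls, GC offsets, a pseudocount of 0.1 and library quality weights 4 each, and a trimmed mean over all peaks, chosen after seeing the data, 3. The peak 29.7 kb from the STAT5B start was not tested under the filter of 1 per Mb. The causes were not tested.

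The larger moves in the number of STAT gene peaks called are listed here, and smaller ones are left out. Over the 13 alternatives that leave out no library, TNF ran from 9 to 13 and IL1B from 5 to 11. TGFB1 ran from 4 to 11 and OSM against IFNG from 5 to 13. With GC offsets it was 1 for IL13, 0 for IL6 and 9 for OSM. With offsets smoothed against mean coverage it was 2 for IFNA against IFNG, 2 for IL6 and 4 for TGFB1. With a mean of at least 1 per Mb it was 2 for IFNA against IFNG, 11 for IL1B, 2 for IL6 and 5 for OSM. With only the groups compared it was 2 for IFNA against IFNG, 5 for IFNG, 0 for IL6, 12 for OSM against IFNG and 10 for OSM. With a pseudocount of 0.1 it was 1 for IFNG and 5 for OSM, and with 2 it was 3 for IFNA against IFNG. With quality weights it was 4 for IFNA against IFNG, 4 for IFNG, 0 for IL6, 13 for OSM against IFNG, 10 for OSM against IL6 and 11 for OSM. With the trimmed mean over all peaks it was 1 for IL22, 8 for OSM against IL6 and 8 for OSM. IL17A stayed at 0 under every alternative. The calls over all peaks moved with the scaling too. For OSM they went from 11587 to 17035 with GC offsets and to 21083 with the trimmed mean over all peaks. For TGFB1 they went from 14273 to 10772 with offsets smoothed against mean coverage. The counts above are thus not read as changes particular to STAT genes. The calls over all peaks under the filters, weights, pseudocounts and sample sets are not given here.

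Leaving out 1 library gave 3 to 8 calls for IL1B (3 without IL1B replicate 3), 0 to 1 for IL6, 1 to 2 for IL13, 1 to 3 for IFNA, 1 to 3 for IFNG, 4 to 8 for TGFB1 (4 without TGFB1 replicate 2), 7 to 11 for TNF (7 without TNF replicate 1) and 3 to 4 for OSM. It gave 1 to 3 for IFNA against IFNG, 2 to 5 for OSM against IL6 (2 without IL6 replicate 4 or OSM replicate 3) and 5 to 8 for OSM against IFNG.

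Libraries share replicate numbers, but the numbers did not pair them: in 0 of 13 comparisons did every same-numbered pair correlate above 0.1, and 11 of 44 libraries correlated best with their own number. The fit with the replicate block lost 0 of the 39 calls, and the replicate block with GC offsets gave 1 call for IL13, 0 for IL6 and 9 for OSM. Depth limits the peaks under 1 per Mb, where 3 reads were worth 0.274 to 1.52 per Mb, and the 10 cytokine comparisons share 4 unstimulated libraries.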
